A study of Mus musculus with 4 samples.

Results

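Described here are 39 interferon response genes of the mouse, listed by name with earlier results of these data known. They are part of 30450 genes named in all 4 count matrices. They comprise 4 regulators, 14 IFIT and ISG effectors, 3 IFI genes, 5 immunity-related GTPases, 5 guanylate-binding proteins, 3 immunoproteasome subunits and 5 membrane and other genes, and all 39 were present in every matrix. The libraries are single-cell RNA libraries of sorted eYFP-positive endothelial cells, 1 each for aorta and left lung lobe of Oct4 wild-type (EC-Oct4+/+) and Oct4 knockout (EC-Oct4Δ/Δ) female mice of strain C57/B6J. All mice lacked Apoe, carried an endothelial lineage tracer and ate a Western diet for 5 weeks. The labels give 2 wild-type and 3 knockout mice without a map from cells to mice, actinomycin D at 1 µg/mL during digestion in all groups, and an eYFP gate set on littermates negative for Cdh5. The series compared endothelial cells with and without Oct4 in an atherosclerosis model. Each group is 1 library, so no difference between groups was tested, and every interval given covers counting error only.

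Interferons are secreted signals of infection and tissue injury. Type I and type II receptors act through JAK kinases and STAT proteins, and the STAT and IRF factors they activate bind the promoters of their target genes. The type I factor ISGF3, which contains STAT2 and IRF9, recognises the interferon-stimulated response element, and the gamma-activated site is the element of the type II response. Endothelial cells respond to both kinds of interferon, and their targets include antiviral proteins, GTPases that attack intracellular parasites, and the proteasome subunits that cut peptides for MHC class I.

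Promoter windows, from 250 bases before to 50 bases after the transcription start, were taken from RefSeq (build GRCm38.p6) for the 28 members that have one. A response element core, spelled GAAA, NN, GAAA (N is any base) and searched on both strands, occurred in 15 of the 28 (53.6%), compared with 3.99% of 27018 genes with a window. The longer form, the same letters followed by CT, occurred in 9 members (32.1%) and in 0.304% of genes. A gamma-activated site core, TTCNNNGAA, occurred in 9 members (32.1%) and in 9.55% of genes. None of the 3 immunoproteasome windows held the response element core. These matches describe letters in a window and do not show that a factor was bound. Windows of 6 members are shown because the results below turn on them: Isg15, Rsad2 and Ifit1 were concentrated in capillary-like aortic cells, Igtp and Gbp7 were higher in knockout aorta, and Irf1 was among the members lower in aorta than in lung. Capitals mark the motif matches, and a response element core on the other strand reads TTTC, NN, TTTC here.
Isg15: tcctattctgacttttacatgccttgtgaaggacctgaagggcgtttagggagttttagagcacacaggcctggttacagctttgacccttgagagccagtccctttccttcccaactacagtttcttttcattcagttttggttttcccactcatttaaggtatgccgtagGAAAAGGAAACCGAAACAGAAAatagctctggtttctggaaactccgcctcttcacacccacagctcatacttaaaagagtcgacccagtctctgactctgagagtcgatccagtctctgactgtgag
Rsad2: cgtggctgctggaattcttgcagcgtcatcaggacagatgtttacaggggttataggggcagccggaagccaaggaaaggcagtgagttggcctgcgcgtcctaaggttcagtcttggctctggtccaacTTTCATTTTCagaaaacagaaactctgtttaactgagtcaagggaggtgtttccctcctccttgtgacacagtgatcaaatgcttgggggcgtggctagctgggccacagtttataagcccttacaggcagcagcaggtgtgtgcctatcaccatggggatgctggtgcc
Ifit1: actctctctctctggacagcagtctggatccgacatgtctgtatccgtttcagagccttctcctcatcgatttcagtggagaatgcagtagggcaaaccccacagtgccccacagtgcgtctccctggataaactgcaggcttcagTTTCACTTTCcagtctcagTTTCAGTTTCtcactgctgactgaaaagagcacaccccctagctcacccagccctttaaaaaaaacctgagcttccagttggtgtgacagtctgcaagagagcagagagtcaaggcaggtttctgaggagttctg
Igtp: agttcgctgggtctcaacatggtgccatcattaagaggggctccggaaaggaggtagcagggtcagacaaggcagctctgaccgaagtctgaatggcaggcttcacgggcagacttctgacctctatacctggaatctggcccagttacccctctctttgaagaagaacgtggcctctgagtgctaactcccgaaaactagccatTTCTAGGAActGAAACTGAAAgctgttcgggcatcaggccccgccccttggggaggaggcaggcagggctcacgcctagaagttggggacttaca
Gbp7: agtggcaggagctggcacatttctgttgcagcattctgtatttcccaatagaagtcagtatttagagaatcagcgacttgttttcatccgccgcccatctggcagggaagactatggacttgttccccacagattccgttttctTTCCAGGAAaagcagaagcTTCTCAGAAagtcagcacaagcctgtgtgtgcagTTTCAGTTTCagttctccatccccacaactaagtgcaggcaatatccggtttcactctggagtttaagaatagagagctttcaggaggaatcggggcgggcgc
Irf1: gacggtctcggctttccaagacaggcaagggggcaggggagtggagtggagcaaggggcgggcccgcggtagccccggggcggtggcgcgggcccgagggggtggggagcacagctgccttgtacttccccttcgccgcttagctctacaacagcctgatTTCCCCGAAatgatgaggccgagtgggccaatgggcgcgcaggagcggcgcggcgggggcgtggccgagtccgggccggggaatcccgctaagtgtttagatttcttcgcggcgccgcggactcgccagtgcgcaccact

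The Isg15 window (chr4:156200769-156201068, minus strand) held 3 overlapping response element matches that begin 78, 72 and 66 bases before the start. The Rsad2 window (chr12:26456403-26456702, minus strand) held 1 match 120 bases before the start. The Ifit1 window (chr19:34640639-34640938, plus strand) held 2 matches, and both extended to the longer form. In the Igtp window (chr11:58199306-58199605, plus strand), a TTCNNNGAA match 45 bases before the start stood next to a response element match at 34 bases. Gbp7 (chr3:142530086-142530385, plus strand) carried 2 TTCNNNGAA matches and 1 longer response element. The Irf1 window shown (chr11:53769764-53770063, plus strand) carried only TTCNNNGAA, 90 bases before the start. Irf1 has 2 windows, and the other (chr11:53770223-53770522, plus strand), not shown, held no match of any motif.

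After removal of barcodes under 500 UMIs or over 15% mitochondrial UMIs, 404 wild-type aortic, 1569 knockout aortic, 775 wild-type lung and 508 knockout lung cells remained, with median depths of 2090, 2325, 1662 and 1732 UMIs. Cells were clustered within each tissue without the members and without a wider interferon list, so that the members did not shape the clusters. Each library shared 4 or 5 barcodes with another. Blood endothelial-like cells numbered 355, 1333, 698 and 465 in that order. All 9 pan-endothelial markers had UMIs in each library. The remaining cells were lymphatic-like (19 to 192 per library) or of other clusters (9 to 44 per library), among them smooth muscle-like, macrophage and monocyte-like and erythroid-like cells. Oct4 itself (Pou5f1) had 0 UMIs in wild-type aorta, 1 in knockout aorta, 2 in wild-type lung and 1 in knockout lung, so its transcript cannot check the genotype labels. Levels below are UMIs summed over blood endothelial-like cells of a library and divided by the total UMIs of those cells, on the usual CPM scale. A gene counts as measured in a comparison when its level averages 50 CPM or more over the pair of libraries and it has 30 UMIs or more in total. A fold of at least 1.5 between genotypes, or 2 between tissues, is counted as a difference. With sums over cells, fewer expressing cells and less RNA per cell cannot be told apart.

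**Figure D1:**
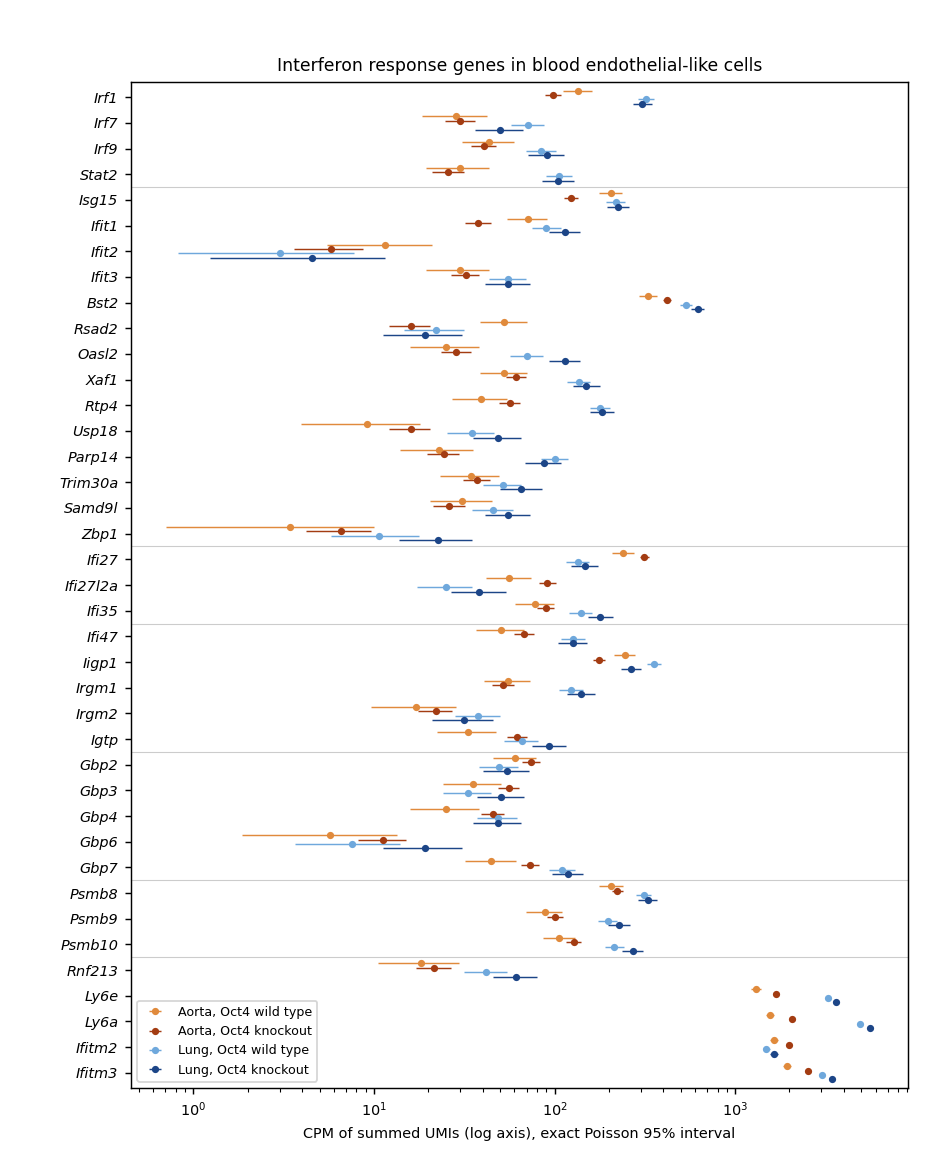
Level of each of the 39 members (rows, grouped by role) in the 4 libraries, as CPM of UMIs summed over blood endothelial-like cells on a log axis, with exact Poisson 95% intervals as lines. Most members lie further to the right in both lung libraries (blue) than in both aortic ones (orange), and Ifi27 and Ifi27l2a lie the other way round.

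Between tissues, about as many measured members as not were at least 2-fold lower in aortic than in lung endothelial cells, in either genotype. In wild-type mice, 23 members were measured, of which 12 were at least 2-fold lower in aorta (16% of the 3221 measured genes were) and 0 were at least 2-fold higher (8.57%). The median log2 ratio of aorta over lung was -1.01 for these members and -0.11 for all measured genes. In knockout mice, 28 members were measured, 14 were at least 2-fold lower in aorta (17.1% of 3261 genes) and 2 at least 2-fold higher (8.43%), and the median log2 ratio was -0.95 against -0.11. These comparisons use different libraries of the same tissues, and 10 members were lower in both. They were Irf1, Stat2, Xaf1, Rtp4, Parp14, Irgm1, Psmb9, Psmb10, Ly6e and Ly6a. The 10 are 83.3% of the wild-type list and 71.4% of the knockout list. The overlap over all measured genes is not given, so these shares do not set the members apart. Scaling by TMM factors moved all log2 ratios of aorta over lung up by 0.15 in wild type and 0.16 in knockout. The vessel types of the tissues were not matched.

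Among the regulators, Irf1, a transcription factor induced by interferon gamma, was at 135 CPM in wild-type aorta and 98.3 CPM in knockout aorta, and at 321 and 306 CPM in wild-type and knockout lung. Stat2, the STAT subunit of ISGF3, was at 29.8, 25.9, 106 and 105 CPM in the same order. Both lung libraries stood above both aortic libraries for these genes. Irf9, the DNA-binding subunit of ISGF3, had 43.5 and 40.8 CPM in aorta against 84.1 and 90.4 CPM in lung. Irf7, the amplifier of type I interferon production, had 28.6 and 30.1 CPM in aorta against 71.3 and 49.7 CPM in lung. The 4 regulators summed to 237 CPM in wild-type aorta and 583 CPM in wild-type lung, 2.46-fold lower in aorta (95% interval 2.11 to 2.88), and were 2.83-fold lower in knockout aorta (2.52 to 3.17).

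The antiviral effectors Rtp4, Parp14 and Xaf1 followed the same order. Rtp4, a receptor-transporting protein with antiviral activity, was at 38.95 CPM in wild-type aorta, 56.5 CPM in knockout aorta, 179 CPM in wild-type lung and 184 CPM in knockout lung. Parp14, a mono-ADP-ribosyltransferase, was at 22.9, 24.3, 101 and 87.0 CPM. Isg15, the ubiquitin-like protein conjugated by the interferon-induced ISGylation enzymes, differed less: 205 CPM in wild-type aorta and 218 CPM in wild-type lung, with 124 CPM in knockout aorta and 225 CPM in knockout lung. Only the knockout aorta was low for Isg15. The 14 IFIT and ISG effectors together reached 916 CPM in wild-type aorta, 892 CPM in knockout aorta, 1553 CPM in wild-type lung and 1767 CPM in knockout lung.

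Immunoproteasome subunits replace the constitutive catalytic subunits after interferon gamma. Psmb9 was at 88.2 CPM in wild-type aorta, 100 CPM in knockout aorta, 197 CPM in wild-type lung and 228 CPM in knockout lung. Psmb10 was at 107, 128, 215 and 271 CPM, and Psmb8 at 206, 223, 312 and 328 CPM. Their sum was 1.81-fold lower in wild-type aorta than in wild-type lung (1.60 to 2.05) and 1.83-fold lower in knockout aorta than in knockout lung (1.68 to 2.00). The constitutive partners moved less between the tissues: Psmb5 was at 132, 156, 134 and 186 CPM, Psmb6 at 233, 243, 253 and 226 CPM, and Psmb7 at 124, 133, 141 and 144 CPM.

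Of the membrane genes, Ly6a (Sca-1), a GPI-anchored surface protein, was at 1560 CPM in wild-type aorta, 2069 CPM in knockout aorta, 4915 CPM in wild-type lung and 5617 CPM in knockout lung. Ly6e, another GPI-anchored protein, was at 1305, 1689, 3267 and 3609 CPM. Ifitm3, which blocks fusion of viruses in endosomes, was at 1944, 2547, 3022 and 3425 CPM, and its relative Ifitm2 was nearly level across tissues. Ifi27 and Ifi27l2a, small mitochondrial interferon-induced proteins, went the other way. Ifi27 was at 241 and 314 CPM in aorta against 134 and 147 CPM in lung, and Ifi27l2a at 56.1 and 91.2 CPM against 25.02 and 38.4 CPM. For both, each aortic library stood above each lung library.

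The GTPases of both families were lower in aorta as a sum, at 573 CPM in wild-type and 640 CPM in knockout aorta against 960 and 950 CPM in lung. The immunity-related GTPases, which coat and disrupt the vacuoles of intracellular parasites, were 1.77-fold lower in wild-type aorta (1.57 to 2.01) and 1.73-fold lower in knockout aorta (1.57 to 1.91). For the guanylate-binding proteins, which attack such vacuoles and cytosolic bacteria, aorta was 1.45-fold lower in wild type (1.19 to 1.77). In knockout mice the guanylate-binding proteins were only 1.12-fold lower in aorta, with an interval (0.97 to 1.29) that includes no difference. Gbp7 showed that shift, at 44.7 CPM in wild-type aorta, 73.4 CPM in knockout aorta, 111 CPM in wild-type lung and 119 CPM in knockout lung.

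Between genotypes, the aortic members split. Of 20 measured members, 2 were at least 1.5-fold higher in knockout (3.03% of 2973 genes) and 2 at least 1.5-fold lower (2.69%). The 20 had a median log2 ratio of 0.27, against 0.03 for all measured genes, and 15 lay above 1, as did 55.1% of all measured genes. The higher members were Ifi27l2a, 1.62-fold (1.20 to 2.24), and Gbp7, 1.64-fold (1.17 to 2.36). The lower members were Isg15, at a ratio of 0.60 (0.51 to 0.72), and Ifit1, which sequesters viral RNA that lacks a methylated cap, at 71.0 CPM in wild type and 37.6 CPM in knockout (ratio 0.53, 0.39 to 0.73). The ratio of Iigp1, an immunity-related GTPase, was 0.72 (0.61 to 0.84), at 245 CPM in wild-type and 176 CPM in knockout aorta, but 1.38 (1.09 to 1.77) outside the capillary-like cluster described below.

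Some of the lower values rested on few cells. In wild-type aorta 1 cell held 14.0% of the Isg15 UMIs, 16.1% of those of Ifit1, 21.7% of those of Rsad2 and 60% of the 10 UMIs of Ifit2. Without the cell that holds most UMIs of each gene in each library, no measured member was at least 1.5-fold lower, and Ifit2 turned from -0.99 to 0.26 on the log2 scale. Isg15 and Ifit1 then stood at -0.56 and -0.80, and Ifit1 no longer counted as measured.

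Below the measured threshold, several GTPases were higher in knockout aorta. Igtp (Irgm3), a membrane-bound regulator of the other immunity-related GTPases, had 29 UMIs or 33.2 CPM in wild type and 237 UMIs or 61.9 CPM in knockout, a ratio of 1.86 (1.26 to 2.84). Gbp4 stood at 25.2 and 45.5 CPM (1.80-fold, 1.15 to 2.95) and Gbp3 at 35.5 and 55.7 CPM (1.57-fold, 1.07 to 2.36). Rsad2 (viperin), which makes a chain-terminating nucleotide, went the other way, with 46 UMIs or 52.7 CPM in wild type and 61 UMIs or 15.9 CPM in knockout. Igtp and Irgm2 have overlapping gene models on chromosome 11 (58199556-58207591 and 58199618-58222782, mm10, GENCODE M21), so their counts are uncertain. The last bases of Gbp6 are all shared with other genes of its cluster, and 19.8% of those of Gbp4, 28.3% of those of Trim30a and 27.5% of those of Ifitm2 are.

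**Figure D2:**
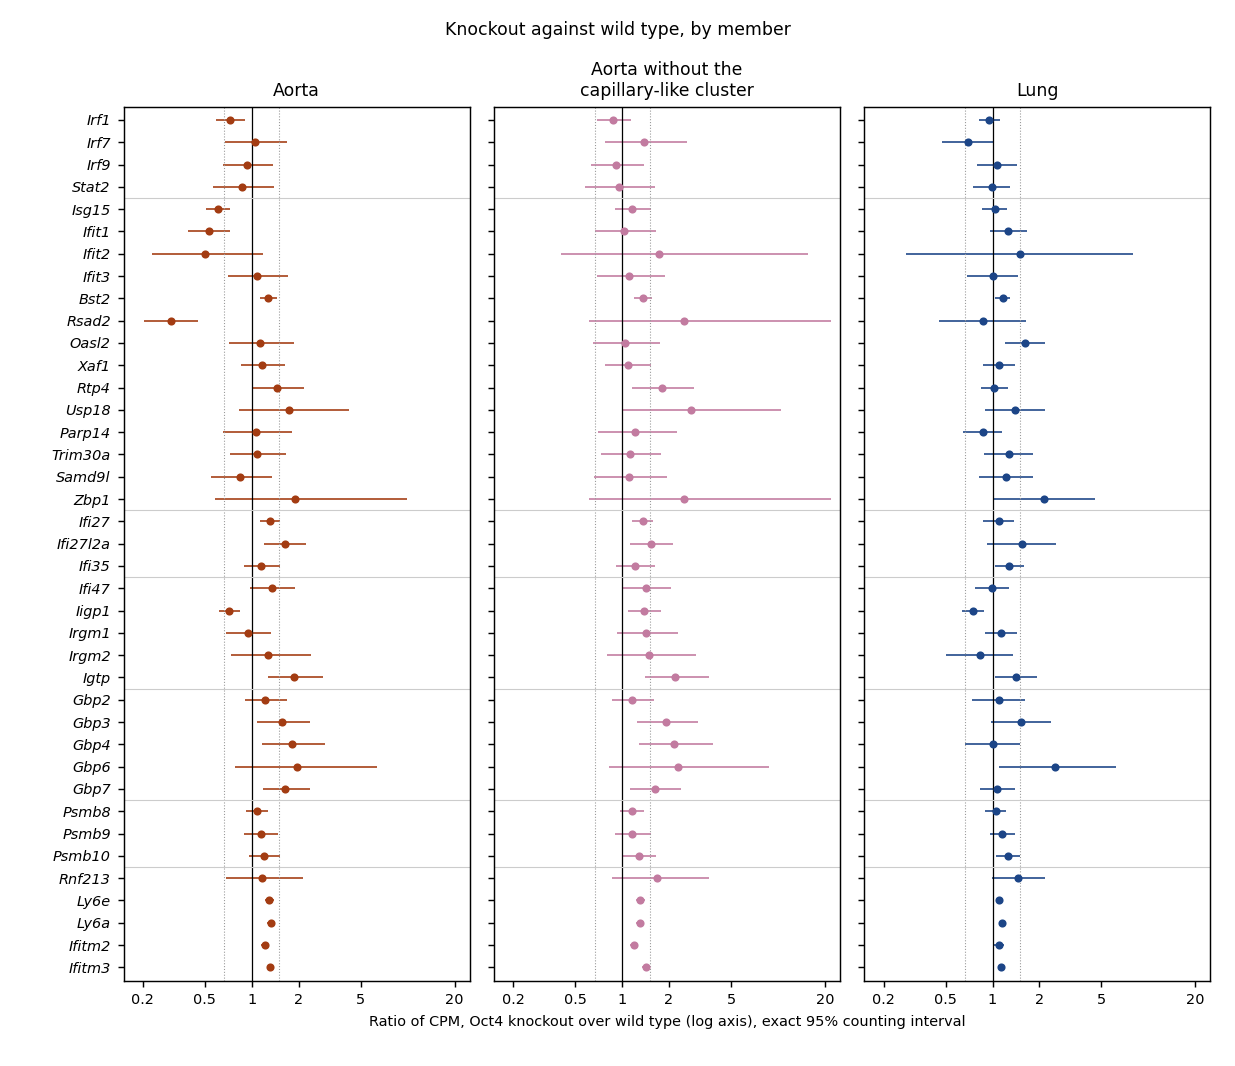
Ratio of knockout over wild-type CPM for each member (log axis), with exact 95% counting intervals, in all aortic blood endothelial-like cells, in those outside the capillary-like cluster, and in lung. Dotted lines mark 1.5-fold. Isg15, Ifit1 and Rsad2 lie left of 1 in the first panel and right of 1 in the middle one, and the lung points cluster near 1.

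The members' levels depended strongly on the aortic cluster. One cluster, led by Rgcc, Car4 and Gpihbp1 and named general capillary-like from its markers, held 60 wild-type and 104 knockout cells. These were 16.9% of wild-type and 7.80% of knockout blood endothelial-like cells, and gave 9.17% and 4.23% of the UMIs. GTPases summed to 2462 CPM in its wild-type cells and 382 CPM in the other wild-type cells, a ratio of 6.44 (5.36 to 7.73). In knockout the levels were 1861 and 586 CPM, a ratio of 3.18 (2.81 to 3.59). The IFIT and ISG effectors stood at 3636 against 642 CPM in wild type and at 2411 against 825 CPM in knockout. The regulators were also higher in the capillary-like cells, by 3.95-fold in wild type (2.87 to 5.38) and 3.51-fold in knockout (2.81 to 4.34). The IFI genes differed little, at 462 against 366 CPM in wild type and 513 against 494 CPM in knockout.

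Within the effector group the concentration was uneven. Rsad2 had 44 of its 46 wild-type UMIs in the capillary-like cluster (95.7%) and 62.3% of its knockout UMIs there. Isg15 had 63.1% of its wild-type and 25.1% of its knockout UMIs there, and was at 1412 CPM in these wild-type cells against 83.2 CPM in the others. Ifit1 had 59.7% and 17.4%. Oasl2, an oligoadenylate synthetase-like protein, had 4.55% in wild type, from 1 UMI there, and 7.34% in knockout. Xaf1, a pro-apoptotic effector, had 6.52% in wild type, from 3 UMIs there, and 8.51% in knockout. These shares stand beside the 9.17% and 4.23% of all UMIs. In knockout, capillary-like cells had 2.11-fold more Xaf1 than the others (1.26 to 3.34) and 1.79-fold more Oasl2 (0.75 to 3.67).

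The immunity-related GTPases showed the same unevenness. Iigp1 had 62.1% of its wild-type UMIs in capillary-like cells, where it was at 1662 CPM against 102 CPM elsewhere. Irgm1, which shields host membranes from the effector GTPases, had 50% of its wild-type and 20.6% of its knockout UMIs there. Ifi47, another member of this family, had 13.6% and 3.46%, close to the shares of all UMIs. Of the guanylate-binding proteins, Gbp2 had 5.66% and 5.63% of its UMIs there and Gbp7 had 12.8% and 9.61%. Gbp3 had 25.8% and 4.69%, Gbp4 had 27.3% and 8.62%, and Gbp6 had 1 UMI there in each library. Their sum was 1.79-fold higher in capillary-like than in other cells in wild type (1.10 to 2.81) and 1.69-fold in knockout (1.30 to 2.16).

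**Figure D3:**
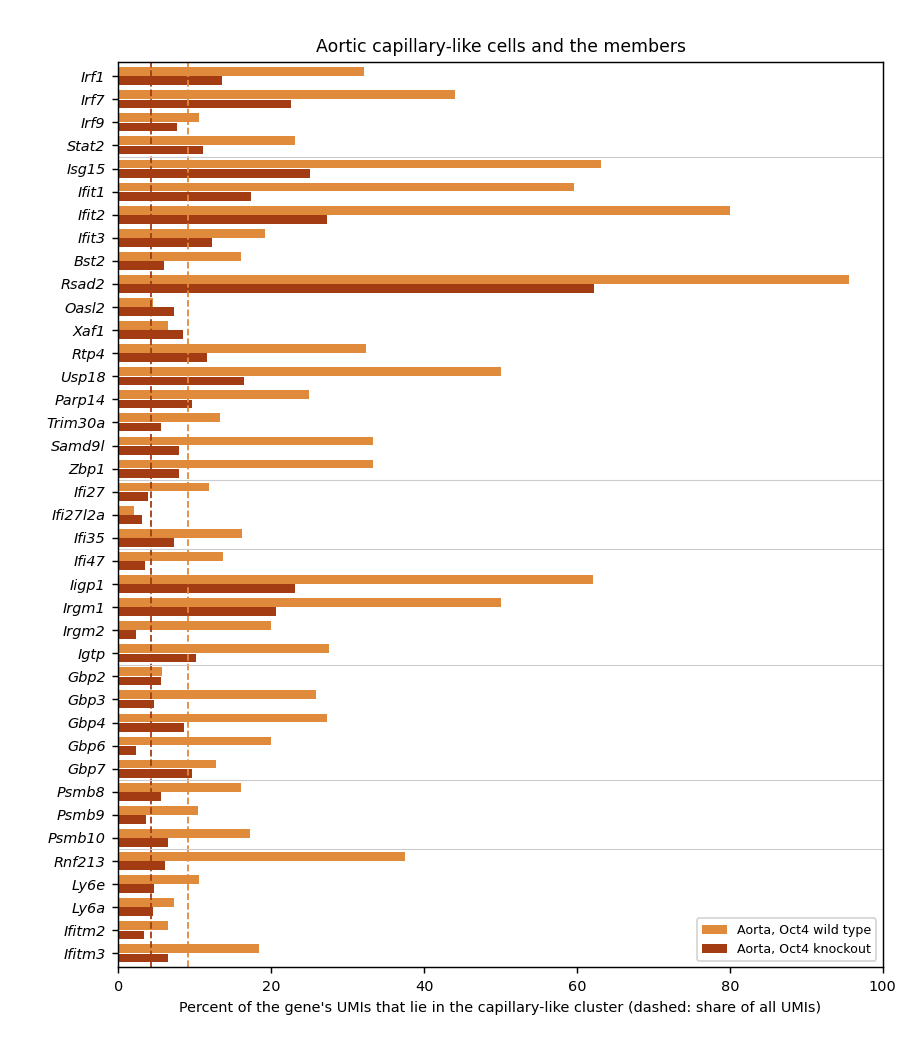
Percent of each member's aortic UMIs that came from the capillary-like cluster, in wild-type and knockout blood endothelial-like cells (bars), beside the share of all UMIs from that cluster (dashed lines, 9.17% and 4.23%). Rsad2, Ifit2, Isg15, Iigp1 and Ifit1 stand far to the right, and Ifi27l2a lies left of both lines.

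Several features moved with this cluster. Its median depth was 1109.5 UMIs in wild-type and 1336.5 in knockout cells, lower than that of the libraries. The Stab1-led cluster 6 was shallower still, at 916.5 and 1328 UMIs, and had 231 and 782 CPM of GTPases. The summed level of 12 immediate early genes, a list chosen after the values were seen, was 17882 CPM in wild-type and 12317 CPM in knockout capillary-like cells. The other wild-type clusters with at least 20 cells had 1409 to 14626 CPM. In knockout cells cluster 2 had more, at 15444 CPM. In the capillary-like cluster, leukocyte genes (8 screened) had 0 UMIs in wild-type and 1 UMI in knockout cells. Erythroid markers had 2417 UMIs in its wild-type cells, of which 1 cell held 2416. The part of depth and of the early genes in the members' levels was not tested. GTPase UMIs were present in 73.3% of its wild-type and 77.9% of its knockout cells, and in 58.3% (44.9 to 70.9) and 51.0% (41.0 to 60.9) after thinning each cell to 500 UMIs. In smooth muscle-like cells of the knockout aorta, 4 of 17 cells (23.5%) had one at a median of 6862 UMIs without thinning.

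Inside the aortic clusters the genotypes differed in opposite directions. In the Cxcl2-led cluster 2, GTPases were at 186 CPM in wild type and 636 CPM in knockout, a ratio of 3.42 (2.40 to 5.04). The ratio was 2.44 (1.64 to 3.76) in the Thbs1-led cluster 3, 2.15 (1.38 to 3.52) in the Atp1b1-led cluster 0, 1.77 (1.18 to 2.77) in the Klk10-led cluster 4 and 3.39 (1.74 to 7.56) in the Stab1-led cluster 6. Lymphatic-like cells had 142 CPM in wild type and 501 CPM in knockout (3.54-fold, 1.98 to 6.96). In the capillary-like cluster the ratio was 0.76 (0.63 to 0.91). Iigp1 held 133 of the 197 wild-type and 156 of the 301 knockout GTPase UMIs there. The immunity-related GTPases of that cluster had a ratio of 0.66 (0.54 to 0.81). Its guanylate-binding proteins had 1.48 (0.91 to 2.49), so the lower sum was not shared by both families. The Plac8-led cluster 5, second to the capillary-like cluster in wild-type GTPase level, had 1051 and 935 CPM. Arterial-like cells had 485 and 406 CPM, and both intervals include no difference. In all, 5 of the 8 blood endothelial-like clusters with at least 20 cells in each library had more GTPase signal in knockout.

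**Figure D4:**
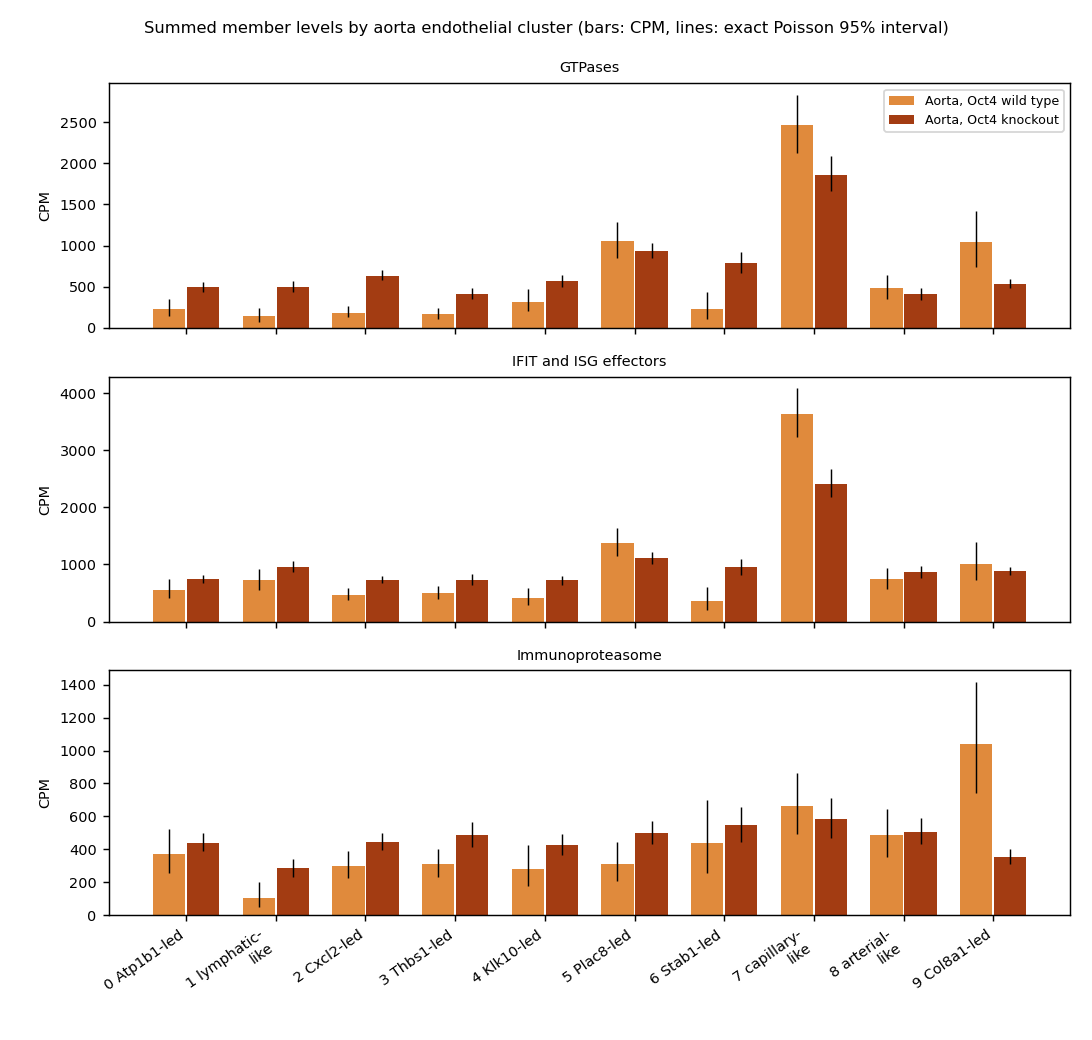
Summed CPM of GTPases, IFIT and ISG effectors and immunoproteasome subunits in aortic endothelial clusters, wild type and knockout side by side, with exact Poisson 95% intervals. The capillary-like cluster 7 is the highest for GTPases and effectors, and the knockout bar is the taller one in clusters 0 to 4 and 6 for all 3 sums; cluster 9 holds 10 wild-type cells.

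The other groups followed their own pattern across these 8 clusters. IFIT and ISG effectors were higher in knockout in 6 and lower in 2. The lower ratios were 0.66 (0.57 to 0.77) in capillary-like cells and 0.80 (0.66 to 0.98) in cluster 5. Isg15, Rsad2 and Ifit1 held 113, 44 and 37 of the 291 wild-type effector UMIs in capillary-like cells. In knockout they held 119, 38 and 25 of 390. Of 19 members measured within the capillary-like cluster, 9 were higher in knockout, as were 58.2% of 1190 genes there. Immunoproteasome subunits were higher in 7 of 8, from 1.05-fold in arterial-like cells to 1.60-fold in cluster 5. IFI genes and membrane genes were higher in 8 of 8. The regulators were higher in 4 and lower in 4. Cluster 9, outside this tally with 10 wild-type cells, differed for several groups. Its ratios were 0.79 (0.72 to 0.87) for membrane genes, 0.34 (0.24 to 0.49) for the immunoproteasome and 0.35 (0.19 to 0.69) for regulators. There, effectors had 0.87 (0.63 to 1.23) and IFI genes 2.14 (1.07 to 5.01). Of the 20 measured members, Bst2 and Ifitm2 were higher in knockout in all 8 clusters, as were 2.05% of the 2973 measured genes. Bst2 (tetherin), which holds budding virus at the cell surface, was at 329 CPM in wild-type and 421 CPM in knockout aorta (1.28-fold, 1.13 to 1.46). Igtp and Usp18, both below the threshold, were higher in knockout in 8 of 8 clusters too. Usp18 had 4 wild-type UMIs in capillary-like cells and 4 in all the others. A cluster without wild-type UMIs counts as higher in knockout, so the Usp18 tally says little. No share of all genes is given for genes below the threshold.

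Single genes show the same opposition. Iigp1 was at 39.4 CPM in wild-type and 125 CPM in knockout cells of cluster 2, and at 16.9 and 64.9 CPM in cluster 3, but at 1662 and 965 CPM in capillary-like cells. Isg15 was at 39.4 and 120 CPM in cluster 2 and at 1412 and 736 CPM in capillary-like cells. Igtp was higher in knockout in both settings, with 11.3 CPM from 2 UMIs and 71.3 CPM in cluster 2 and 100 and 148 CPM in capillary-like cells.

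Without the capillary-like cluster, an exclusion chosen after the values were seen, the aortic comparison changed. GTPases were then 1.53-fold higher in knockout, at 586 against 382 CPM, compared with 1.12-fold (1.01 to 1.23) with all cells. Effectors were 1.29-fold higher, compared with a ratio of 0.97 (0.90 to 1.05). The ratio of Isg15 turned to 1.16 (0.89 to 1.54) and that of Ifit1 to 1.03 (0.66 to 1.65), with 83.2 and 31.5 CPM left in wild type. Iigp1 turned to 1.38-fold higher (1.09 to 1.77), at 102 CPM in wild type and 141 CPM in knockout. Of 18 measured members, 17 lay above 1, 2 were at least 1.5-fold higher (3.11% of 2955 genes) and 0 at least 1.5-fold lower (2.37%). The median log2 ratio of the 18 was 0.37, against 0.03 for all genes, of which 54.3% lay above 1. When the 8 clusters were weighted alike instead, GTPases were 1.19-fold and effectors 1.02-fold higher in knockout.

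Between genotypes in lung, of 30 measured members 1 was at least 1.5-fold higher in knockout (2.68% of 3356 genes) and 0 at least 1.5-fold lower (1.64%), with 24 above 1 (54.1% of all measured genes were) and a median log2 ratio of 0.14 against 0.02 for all genes. The higher member was Oasl2, at 70.5 CPM in wild type and 114 CPM in knockout (1.62-fold, 1.21 to 2.17). GTPases were at 960 CPM in wild type and 950 CPM in knockout, a ratio of 0.99 (0.91 to 1.08). Effectors were 1.14-fold (1.06 to 1.22) and immunoproteasome subunits 1.14-fold (1.04 to 1.26) higher. Iigp1 was at 356 CPM in wild type and 267 CPM in knockout (ratio 0.75, 0.64 to 0.88). It was higher in knockout in 3 of 6 lung clusters and lower in 3, and the ratio was 0.94 with clusters weighted alike.

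Across lung clusters, aerocyte capillary-like cells, which line the gas-exchange surface, had the lowest GTPase sum of the 6 blood endothelial-like clusters, at 321 CPM in wild type and 299 CPM in knockout. The cluster named general capillary-like had 730 and 870 CPM. The unnamed cluster 3, led by Ivns1abp, had 1876 and 1913 CPM, and the Atf3-led cluster 1 had 1415 and 1459 CPM. The best detected general capillary markers averaged 82.9% of cells in cluster 1 and 83.8% in cluster 3, against 79.2% in the named cluster. Clusters 1 and 3 went unnamed because too few of these markers were among their 10 leading genes, which included the member Iigp1. They may therefore be general capillary cells too. Iigp1 had 1 UMI in each library's aerocyte capillary-like cells, or 3.00 and 4.74 CPM, against 803 and 997 CPM in cluster 3. Ifitm3 was also low in aerocyte capillary-like cells, at 430 and 545 CPM against 3230 and 4029 CPM in general capillary-like cells. Ly6a went the other way, at 8750 and 8913 CPM in aerocyte and 3703 and 5102 CPM in general capillary-like cells. After thinning to 500 UMIs, 10.7% of wild-type aerocyte capillary-like cells (5.97 to 17.3) and 45.5% of wild-type cluster 3 cells (35.4 to 55.8) had a GTPase UMI, and without thinning 49.6% and 65.7% did. In the Scgb1a1-led cluster outside the endothelium, 6 of 21 wild-type cells had one without thinning (28.6%), at a median of 1120 UMIs. The median depth was 2324 UMIs for the aerocytes and 1233 for cluster 3.

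**Figure D5:**
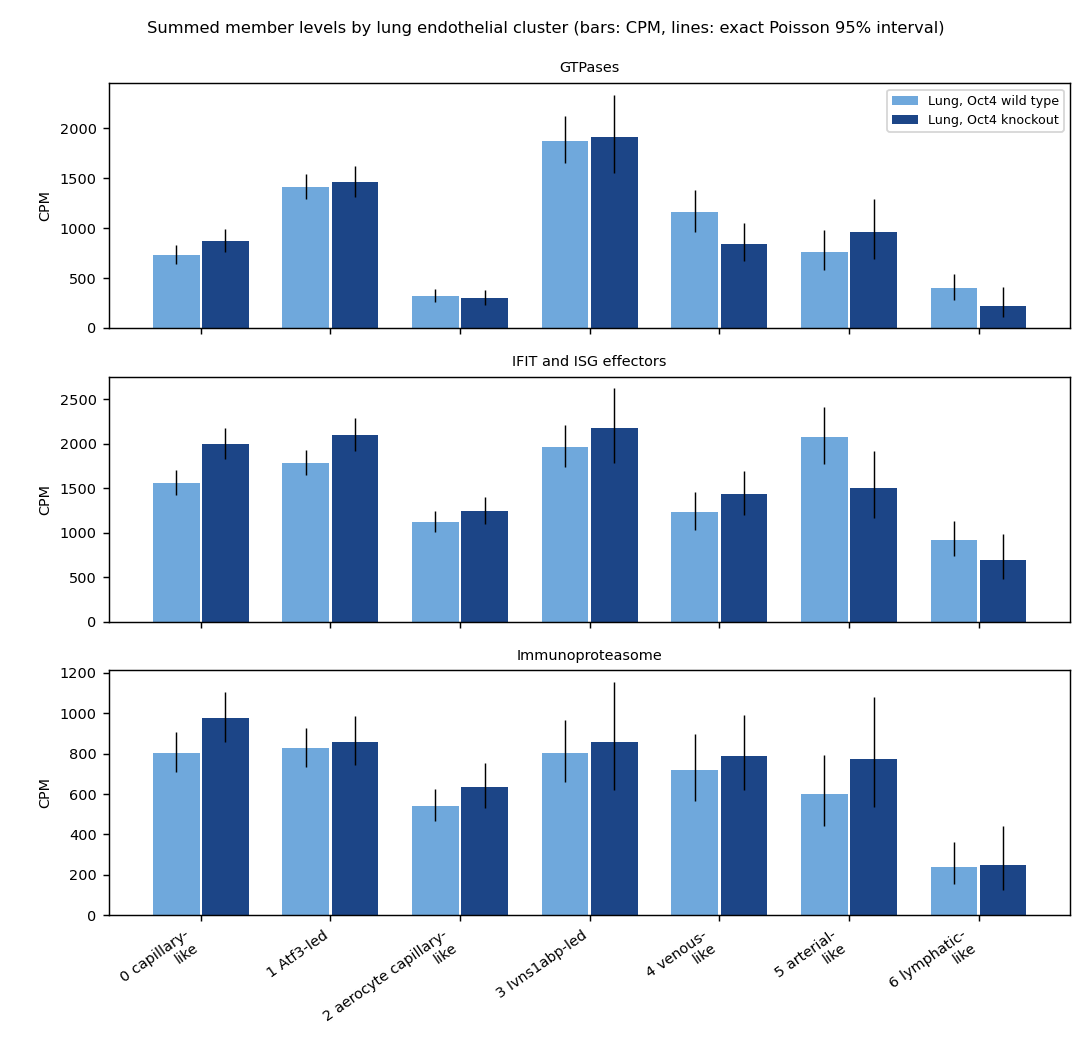
Summed CPM of the same 3 member groups in lung endothelial clusters, wild type and knockout side by side, with exact Poisson 95% intervals. GTPases are low in the aerocyte capillary-like cluster 2 and high in clusters 1 and 3, and the knockout bar is the shorter one for effectors in the arterial-like cluster 5 and for GTPases in the venous-like cluster 4.

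Immediate early genes varied in the lung too, with 5852 CPM in wild-type general capillary-like cells, 7044 CPM in aerocyte capillary-like cells, 22762 CPM in cluster 1 and 14328 CPM in cluster 3, and their part in the GTPase levels was not tested. Within lung clusters, immunoproteasome subunits and membrane genes were each higher in knockout in 6 of 6. Of the 30 measured members, Oasl2, Igtp, Psmb10 and Ly6a were higher in all 6 clusters, as were 4.02% of 3356 genes. Irf7 was the 1 measured member lower in knockout in all 6 (3.43% of the 3356 genes were), although its sum over cells had a ratio of 0.70 with an interval (0.48 to 1.01) that includes no difference. Venous-like cells had 1162 CPM of GTPases in wild type and 842 CPM in knockout, a ratio of 0.72 (0.54 to 0.97). Arterial-like cells had 2075 CPM of effectors in wild type and 1504 CPM in knockout, also 0.72 (0.54 to 0.97).

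Of the pathway's ligands, 5 genes were looked up. Ifnb1, Ifna4, Ifng, Ifnl2 and Ifnl3 had 0 UMIs in the 404, 1569, 775 and 508 kept cells. A count of 0 there allows up to 0.743%, 0.191%, 0.387% and 0.591% of cells with a UMI, which does not limit how many cells express a ligand at a low level. Receptor genes were present: Ifngr1, a chain of the interferon gamma receptor, was at 343 CPM in wild-type aorta, 371 CPM in knockout aorta, 209 CPM in wild-type lung and 214 CPM in knockout lung, and Ifnar2, a chain of the type I receptor, at 79.0, 94.1, 144 and 154 CPM. Of a wider list of 100 interferon pathway genes, 97 were named in all matrices. In aorta 23 of these were measured, 1 at least 1.5-fold higher in knockout (Ube2l6, an ISG15-conjugating enzyme) and 2 at least 1.5-fold lower, beside 3.03% and 2.69% of all measured genes. The lower genes were Cxcl9, a chemokine induced by interferon gamma, at 132 CPM in wild type and 18.0 CPM in knockout, and Slfn5, at 192 and 94.1 CPM. The capillary-like cluster held 110 of the 168 wild-type and 96 of the 360 knockout Slfn5 UMIs, beside 9.17% and 4.23% of all UMIs. The lower Slfn5 level is therefore not shown for cells outside that cluster. In wild type 1 cell held 83 of the 115 Cxcl9 UMIs, and the level without it was 36.7 CPM. Of 7 T and NK cell markers in aortic blood endothelial-like cells, Trbc2 and Ccl5 had UMIs and 5 were at 0. Their sum was 116 CPM in wild type and 3.40 CPM in knockout, and 95 of the 101 wild-type UMIs were Ccl5 in 1 cell, which also held Cxcl9. The part of that cell in the other results was not tested beyond the values without the highest cell. In lung 34 were measured, 1 higher (Lgals3bp) and 1 lower (Parp12), beside 2.68% and 1.64% of all measured genes.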

How the data were processed

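Single-cell RNA was measured in 4 libraries, 1 per group. The authors deposited UMI counts per gene and barcode, and per the submitters' processing notes they used Cell Ranger and build mm10, each named without a version. Aortic rows carried symbols; of 31053 lung rows, 30934 identifiers matched a symbol and 119 did not. No column of per-sample values went unused (0). The members and all lists were chosen with earlier results of these data known. All 39 members could be named. Of the wider list, proteasome subunits, receptors and signalling genes could be named whatever their values. The ligands looked up are named too, and other wider-list genes were named where they passed the fold size.

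Cells with at least 500 UMIs and at most 15% mitochondrial UMIs were kept. Scrublet called 4 to 7 doublets per library, which were kept and removed as an alternative. Each tissue was clustered (scanpy 1.11.5, leidenalg 0.10.2; 2000 variable genes, 30 components, 15 neighbours, resolution 1) without members and wider list. Cluster names needed at least 3 markers among the 10 leading genes, a rule set after the clusters were seen; the markers themselves came from lists written earlier. UMIs were summed per library over blood endothelial-like cells. Intervals are 95% exact Poisson for levels, exact conditional for ratios and Clopper-Pearson for shares (scipy 1.17.1). The interval code was tested on simulated counts. TMM factors came from edgeR 4.0.16. Alternatives covered cell filters, doublets, populations, single cells, depth, scaling, low-value filters, clustering and the motif. The 12 immediate early genes and the exclusion of the capillary-like cluster were chosen after seeing the data. Gene positions came from GENCODE M21. The result for 1 gene of the wider list is not reported here.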

Additional observations from a re-analysis of the deposited data

Results flagged for a closer look

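Several clusters had knockout over wild-type ratios on opposite sides of 1 with counting intervals that leave out 1. Each cluster holds 1 library per genotype, and the difference between clusters was not tested. For GTPases in aorta, the ratio was 0.76 in capillary-like cluster 7, where Iigp1 held 133 of 197 wild-type and 156 of 301 knockout UMIs. It was 2.15 in cluster 0, 3.54 in the lymphatic-like cluster 1, 3.42 in cluster 2, 2.44 in cluster 3, 1.77 in cluster 4 and 3.39 in cluster 6. Cluster 9, left out of this screen because its 10 wild-type cells fall under the minimum of 20, had 0.52 (0.37 to 0.74). For IFIT and ISG effectors in aorta, the ratio was 0.80 in cluster 5 and 0.66 in cluster 7. It was 1.33 in cluster 1, 1.56 in cluster 2, 1.45 in cluster 3, 1.72 in cluster 4 and 2.65 in cluster 6. In cluster 7, Isg15, Rsad2 and Ifit1 held 113, 44 and 37 of the 291 wild-type effector UMIs. In lung, the effector ratio was 0.72 in the arterial-like cluster 5, against 1.28 in general capillary-like cells and 1.17 in cluster 1.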

How the results depend on the processing

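No paired analysis was possible because each group is 1 library, and for the same reason no replicate could be left out. The 2 or 3 mice behind a library cannot be separated, so spread between animals was not measured. Of the values for sums, counts, shares and motifs under alternatives, 217 stayed close to the reported value and 71 moved. Close means inside the counting interval of the reported value, or within 1.5 times for a count. Of 2113 values for single members and the remaining sums, 1936 stayed close, and 89 lay on the other side of 1 from the reported ratio. In 9 of these 89 the reported ratio was past the fold size. Where a value moved, the cause was not tested. Counts of members past the fold size are given below without the share of all measured genes under the same setting. The aorta without the capillary-like cluster, described above, is the exception. These counts show how the calls moved and do not set the members apart from other genes.

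For aorta, knockout against wild type, the log2 ratio of GTPases (0.16) became 0.32 with at least 1000 UMIs per cell and at most 10% mitochondrial UMIs, -0.073 with cells thinned to 500 UMIs, -0.019 by per-cell means, and 0.62 without the capillary-like cluster. That of IFIT and ISG effectors (-0.04) became 0.12, -0.28, -0.26 and 0.36 in the same order. Members at least 1.5-fold higher (2) numbered 5 with clusters weighted alike, 5 thinned, 6 by per-cell means, 5 with a low-value filter of 20 CPM and 0 with one of 100 CPM. Members at least 1.5-fold lower (2) numbered 0 under the stricter cell filter, 0 with all cells, 0 without the highest cell, 4 thinned, 4 by per-cell means, 0 without the capillary-like cluster and 1 at 100 CPM. Ifit2 (-0.99) turned to 0.56 under the stricter filter, 0.26 without the highest cell and 0.79 without the capillary-like cluster. Without that cluster Isg15 turned to 0.22, Ifit1 to 0.042, Rsad2 to 1.32, Iigp1 (-0.48) to 0.47 and Irgm1 (-0.08) to 0.51.

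For lung, members higher (1) numbered 2 with barcodes as deposited, 2 weighted alike, 2 without cells holding leukocyte UMIs, 6 thinned, 3 by per-cell means, 3 at 20 CPM and 0 at 100 CPM. Members lower (0) numbered 1 with all cells, 1 without the highest cell and 1 by per-cell means. Thinning gave 0.18 for GTPases (-0.01) and 0.30 for effectors (0.19). Ifi27l2a (0.62) turned to -0.15 with all cells.

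For wild-type aorta against lung, GTPases (-0.74) became -0.93 under the stricter filter, -0.28 thinned, -0.43 by per-cell means and -1.33 without the capillary-like cluster; effectors (-0.76) became -0.95, -0.38, -0.43 and -1.27, and -0.62 with TMM factors. Members at least 2-fold higher (0) numbered 1 thinned, 1 by per-cell means and 2 at 20 CPM, and members lower (12) numbered 7 thinned and 6 at 100 CPM. Without the capillary-like cluster Ifit2 turned to -0.27 and Rsad2 to -3.12. For knockout aorta against lung, GTPases (-0.57) became -0.45 with all cells, -0.42 with TMM factors and -0.70 without the capillary-like cluster. Effectors (-0.99) became -0.82 with all cells, -0.75 weighted alike, -0.87 by per-cell means, -0.83 with TMM factors and -1.10 without that cluster. The immunoproteasome (-0.88) became -0.73 weighted alike and -0.72 with TMM factors. Members higher (2) numbered 1 thinned and 1 at 100 CPM, and members lower (14) numbered 8 at 100 CPM.

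Thinned to 1000 in place of 500 UMIs, the percent of cells with an effector UMI was 43.2 in wild-type aorta, 49.5 in knockout aorta, 70.9 in wild-type lung and 69.6 in knockout lung. For the immunoproteasome it was 27.7, 35.5, 45.1 and 57.5, and for GTPases 37.6 in knockout aorta, 49.1 in wild-type lung and 47.3 in knockout lung. The longer motif occurred in 9 members in place of 15.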
